A study of Mus musculus with 12 samples.

Results

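The comparison of ML351 alone with vehicle covers 6 of the 12 RNA-seq libraries of the series, 3 of islets kept for 24 h with ML351 at 10 µM and 3 of islets kept for the same time with vehicle. All islets were isolated from the pancreas of C57BL/6J mice by collagenase perfusion, and neither group received cytokines. The members were chosen by the treatment in the labels alone, and all 14089 genes of the count table were tested. The other 6 libraries, 3 of islets given cytokines plus ML351 and 3 of islets given cytokines, entered the same model and served as a second setting for the inhibitor. Their cytokine mixture held IL-1β at 5 ng/ml, TNF-α at 10 ng/ml and IFN-γ at 100 ng/ml. Neither age, sex, donor animal nor pooling of islets is stated in the labels used here. They also leave out whether replicates were separate animals or cultures, and the p-values therefore rest on a spread that may be only technical.

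ML351 is a small molecule that inhibits 12/15-lipoxygenase, an enzyme that adds oxygen to arachidonic acid and other polyunsaturated fatty acids. Its lipid products act as signals in islet β cells, which make insulin, and in macrophages, which also reside in islets. The inhibitor acts on the protein, so the transcripts below report the state of the tissue after treatment and not the activity of the enzyme. An islet library mixes the RNA of β cells, α cells (glucagon), δ cells (somatostatin), PP cells (pancreatic polypeptide), macrophages, vessel cells and remnants of exocrine tissue. In such bulk samples fewer cells of a type and less RNA per cell cannot be told apart.

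Totals ran from 21780484 to 27193026 counts in the ML351 libraries and from 20664596 to 23519151 counts in the vehicle libraries. ML351 replicate 1 stood apart from the other 5 libraries. On the first principal component of the 6, which held 37.3% of the variance, it lay at 46.2. ML351 replicates 2 and 3 lay at 0.29 and -11.4, and vehicle libraries between -16.3 and -8.84. Duox2, which encodes a peroxide-producing oxidase of epithelia, was at 28.5 CPM (counts scaled to a common library size by edgeR's TMM method) in ML351 replicate 1, at 0.656 and 0.197 CPM in the other ML351 libraries, and at 0.046 to 0.382 CPM with vehicle. Krt19, a keratin of duct cells, was likewise at 40.9 CPM in that library, at 3.28 and 3.23 CPM in the other ML351 libraries, and at 2.53 to 7.64 CPM with vehicle. Both genes were picked after their values were seen. The part of this library in the results was not tested. Values without it are given where a printed list median, or list count at an unadjusted p under 0.05, moved by over 1.5 times. Counts of genes without overlap and of DESeq2 calls were not recomputed without it.

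Differences were small for most genes. The median log2 fold change of ML351 over vehicle was 0.01 over all genes, and the middle 90% lay between -0.44 and 0.39. Of 337 genes past a log2 fold change of 1 in either direction, 65 reached a mean log2 CPM of 2 over the 12 libraries. In 10 of these the ML351 and vehicle libraries did not overlap, which held for 15.9% of all genes. Those 10, listed after their values were seen, were Cyp1a1, Ppy, Cela1, Pnlip, Ciita and Olfr56 on the lower side and Ifi44, Oas3, Trim15 and Fam26f on the higher side. EdgeR's quasi-likelihood test with Benjamini-Hochberg adjustment called 5 genes at an adjusted p under 0.05, which is 0.0355% of those tested, 2 higher (0.0142%) and 3 lower (0.0213%). An unadjusted p under 0.05 was found for 1265 genes (8.98%), 693 higher and 572 lower with ML351. Without ML351 replicate 1 the counts were 402 higher and 459 lower, and the median over all genes was -0.001.

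The 5 called genes act in different parts of the cell. Xpo1, the receptor that carries proteins out of the nucleus, and Mcoln1, an ion channel of the lysosome, rose. Clec7a, a receptor of macrophages for β-glucans, Atp7a, a copper-transporting pump, and Enpp2, whose product autotaxin makes the lipid signal lysophosphatidic acid, fell. Values are given below in the order of ML351 replicates 1, 2 and 3, against vehicle replicates 1, 2 and 4.

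Xpo1 (chr11:23256041-23298249, plus strand) was at 70.2, 68.5 and 70.0 CPM with ML351, against 56.1, 54.1 and 53.7 CPM with vehicle. All 3 ML351 libraries lay above all vehicle libraries, and the replicates of each group lay close together (log2 fold change 0.35, SE 0.057). Mcoln1 (chr8:3500457-3515232, plus strand) was at 61.9, 58.5 and 56.9 CPM with ML351, against 45.9, 45.8 and 48.1 CPM with vehicle (0.34, SE 0.056). Clec7a (chr6:129461591-129472779, minus strand) was at 8.20, 9.11 and 8.90 CPM with ML351, against 14.6, 12.3 and 14.7 CPM with vehicle. Its log2 fold change of -0.67 (SE 0.0999) was the largest in size among the 5. Atp7a (chrX:106027276-106124926, plus strand) was at 99.5, 93.5 and 87.5 CPM with ML351, against 114, 129 and 133 CPM with vehicle (-0.43, SE 0.069). Enpp2 (chr15:54838901-54952892, minus strand) was at 338, 377 and 380 CPM with ML351, against 472, 491 and 479 CPM with vehicle (-0.40, SE 0.066). Groups did not overlap for any of the 5, and each had an edgeR adjusted p of 0.0421.

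**Figure D1:**
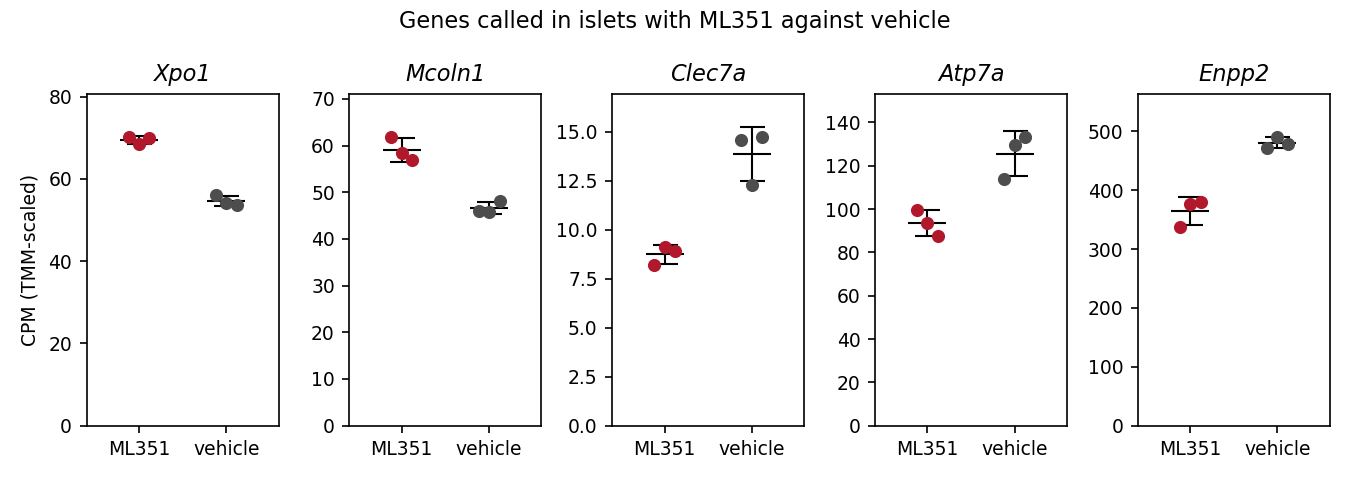
CPM of the 5 called genes in each library, ML351 on the left and vehicle on the right of each panel. Points are libraries and bars are group means with SD (n = 3). In every panel the ML351 and vehicle points are separate, above for Xpo1 and Mcoln1 and below for Clec7a, Atp7a and Enpp2.

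These calls sat close to the threshold, and 1 library could end them. Leaving out ML351 replicate 1, edgeR called 0 genes (lowest adjusted p = 0.126, with 861 genes at an unadjusted p under 0.05). Without vehicle replicates 1 and 4 in turn edgeR also called 0 (lowest adjusted p = 0.0504 and 0.222, with 1018 and 1017 genes at an unadjusted p under 0.05), and without vehicle replicate 2 edgeR called Clec7a alone. With ML351 replicate 2 left out edgeR called 17 genes, and with ML351 replicate 3 left out 12. From all 12 libraries DESeq2 called 110 genes (0.781%), 49 higher (0.348%) and 61 lower (0.433%). These shares are over all 14089 genes. DESeq2 gave some of them, such as Ahrr, no adjusted p and could not call those. At an unadjusted p under 0.05, from 2.85% (without ML351 replicate 1) to 5.98% (without ML351 replicate 3) of all genes were higher over the 6 omissions. From 3.06% (without vehicle replicate 1) to 4.44% (without ML351 replicate 2) were lower. List counts of an omission are to be read beside its own shares. The log2 fold changes moved far less, to -0.63 for Clec7a, -0.48 for Atp7a, 0.33 for Xpo1, 0.30 for Mcoln1 and -0.35 for Enpp2 without ML351 replicate 1.

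**Figure D2:**
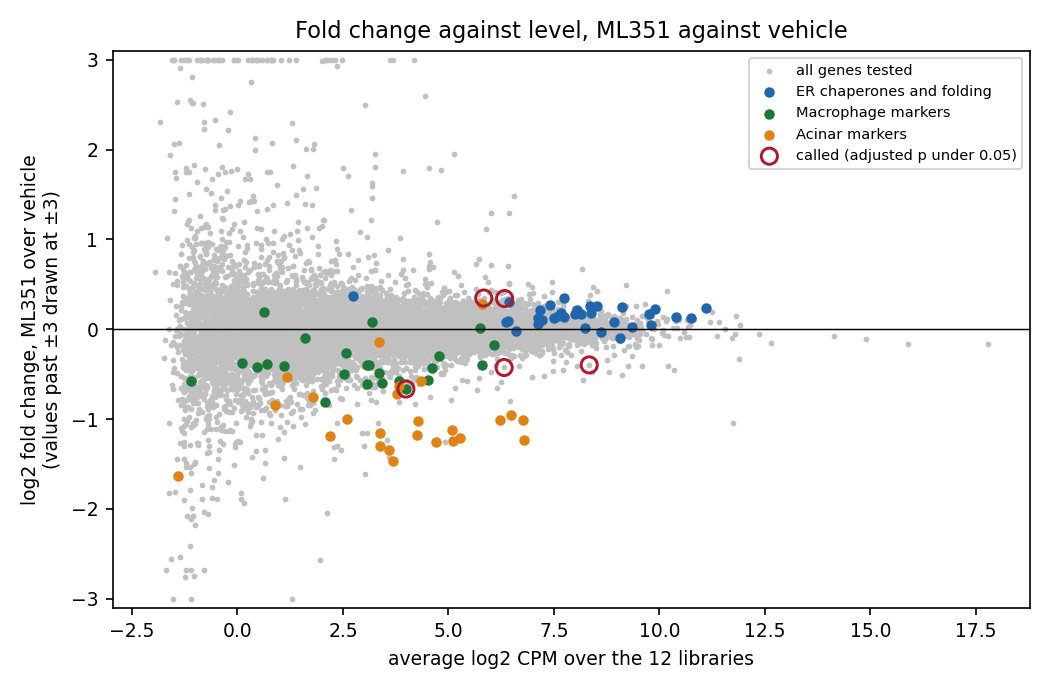
Log2 fold change of ML351 over vehicle (vertical axis) against average log2 CPM over the 12 libraries (horizontal axis). Points are genes, with ER chaperones, macrophage markers and acinar markers in colour and the 5 called genes ringed. ER chaperones lie mostly above zero and macrophage and acinar markers mostly below it, within a cloud that widens at low levels.

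Further genes were named by smallest p among those with separate groups, up to 12 higher and 12 lower. Apart from the 5 above, edgeR called none of them in the fit of all 12 libraries, and DESeq2 called all 24. From the 6 libraries without cytokines alone edgeR did call Gstp1 (adjusted p = 0.015). That fit also called Gpnmb, Nnat, Insrr, H2-T23, Plk3 and Lrp8 (edgeR adjusted p = 0.034 each), but not Mcoln1 (0.066) or the others named here. On the lower side, the complement genes C1qc (8.03, 7.76 and 6.34 CPM with ML351, against 10.7, 11.8 and 10.4 CPM with vehicle) and C1qa, which macrophages make, stood at log2 fold changes of -0.57 and -0.39. Gpnmb, a membrane glycoprotein of macrophages and lysosomes, was at 24.3, 26.0 and 29.0 CPM with ML351, against 49.0, 36.7 and 40.9 CPM with vehicle (-0.68). Gstp1 was at 266, 279 and 289 CPM with ML351, against 395, 381 and 455 CPM with vehicle (-0.56), and Gstm1 stood at -0.41. Both encode glutathione transferases, which couple glutathione to reactive compounds. Sult1d1, a sulfotransferase gene, stood at -0.81, Insrr, the insulin receptor-related receptor gene, at -0.41, and H2-T23, a non-classical MHC class I gene, at -0.41.

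Nnat, an imprinted gene whose small ER protein takes part in insulin secretion, was at 7.90, 10.4 and 11.7 CPM with ML351, against 18.1, 17.8 and 17.4 CPM with vehicle (-0.83, edgeR adjusted p = 0.064). Every ML351 library lay below every vehicle library. On the higher side, Hpgds, which encodes the prostaglandin D synthase of blood cells, was at 31.9, 25.2 and 30.5 CPM with ML351, against 21.3, 21.1 and 22.1 CPM with vehicle (0.44, adjusted p = 0.069). The kinase gene Plk3 stood at 0.41, the reelin receptor gene Lrp8 at 0.41, the SUMO protease gene Senp5 at 0.38 and St7 at 0.57. The RNA-binding protein gene Larp4 (0.30), the mitochondrial protease gene Pitrm1 (0.30), the G-protein subunit gene Gng12 (0.26), Clptm1l (0.32) and the ER chaperone gene Dnajb11 (0.31) completed the higher side.

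Macrophage markers lay below zero with ML351 in 21 of 24 tested members. EdgeR called 1 of them, Clec7a (0.0213% of all genes were called lower), and DESeq2 called 4, all lower (0.433% of all genes). At an unadjusted level 13 were lower and 0 higher at an unadjusted p under 0.05, where 4.06% of all genes were lower. In 12 markers the groups did not overlap with ML351 lower, against 7.32% of all genes in that direction, and in 0 with ML351 higher. Their median log2 fold change was -0.40, against 0.01 over all genes, and -0.48 without ML351 replicate 1. In that omission 13 were again lower at an unadjusted p under 0.05, beside 3.26% of all genes. The summed level of the 24 markers was 229, 231 and 207 CPM with ML351, against 281, 283 and 276 CPM with vehicle. Cd163 was the 1 listed marker not tested.

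Receptors and adaptors of macrophages were among the lower ones. Tyrobp, a signalling adaptor, was at 7.56, 8.05 and 6.26 CPM with ML351, against 10.3, 12.2 and 10.6 CPM with vehicle (-0.60, edgeR adjusted p = 0.094). Adgre1, which encodes the surface antigen F4/80, was at 1.61, 2.08 and 1.54 CPM with ML351, against 2.59, 3.41 and 3.18 CPM with vehicle (-0.80, adjusted p = 0.18). Csf1r, the receptor for the macrophage growth factor CSF1, stood at -0.61 with overlapping groups. Fc-receptor genes stood at -0.50 (Fcgr3) and -0.40 (Fcer1g), the phagocyte oxidase gene Cybb at -0.49 and the lysozyme gene Lyz2 at -0.18. Not every marker was lower. Cd68, a lysosomal glycoprotein, was at 16.1, 12.5 and 10.9 CPM with ML351, against 12.0, 14.2 and 13.0 CPM with vehicle (0.01), and Itgam (0.19) and Cd14 (0.08) had overlapping groups as well.

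Genes of MHC class II antigen presentation, which macrophages and other presenting cells express, lay in the same direction. Of 7 tested, edgeR called 0 and DESeq2 called 3, all lower (0.433% of all genes), and all 7 had a log2 fold change below zero. In 4 the unadjusted p was under 0.05, where 4.06% of all genes were lower, and 5 had no overlap, against 7.32% of all genes. The median of the 7 was -0.64. H2-Aa, an antigen-binding chain, was at 4.04, 3.32 and 4.21 CPM with ML351, against 6.49, 6.77 and 6.58 CPM with vehicle (-0.78, edgeR adjusted p = 0.12). H2-Ab1, its partner chain, was at 8.03, 9.51 and 9.25 CPM with ML351, against 13.1, 14.8 and 14.5 CPM with vehicle (-0.66). Cd74, the invariant chain, stood at -0.47 and H2-Eb1 at -0.43. From the 6 libraries without cytokines alone edgeR called H2-Ab1 and Cd74 (adjusted p = 0.034 each). In that fit 13 of 13502 genes were called lower. Of 18 lymphocyte markers only 3 were in the table, with a summed level of 4.74 to 5.43 CPM in ML351 libraries and 6.81 to 7.34 CPM in vehicle libraries.

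**Figure D3:**
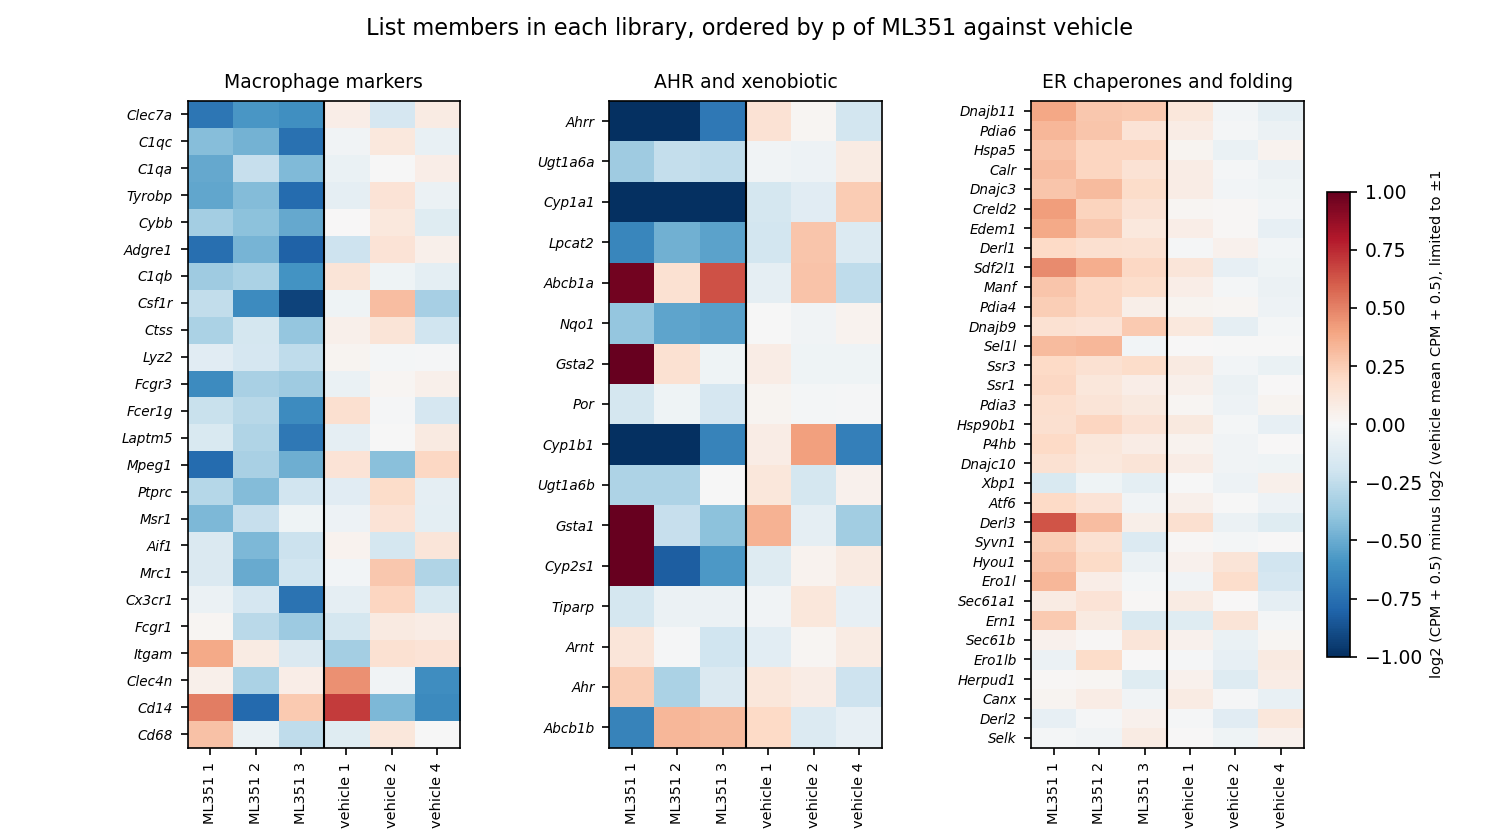
Members of the macrophage, AHR and xenobiotic, and ER chaperone lists (rows, ordered by p) in each library (columns, ML351 left of the line and vehicle right of it). Colour is log2 (CPM + 0.5) minus that of the vehicle mean, limited to ±1, red higher and blue lower. Most macrophage rows are blue in the 3 ML351 libraries, most ER chaperone rows are pale red in them, and some AHR and xenobiotic rows are red in ML351 replicate 1 alone.

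Chaperones and folding enzymes of the endoplasmic reticulum (ER) lay above zero with ML351 in 30 of 33 members, by small amounts. These proteins fold and quality-control secreted proteins such as insulin, and their genes are the classic targets of the unfolded protein response. EdgeR called 0 of the 33 and DESeq2 called 6, all higher (0.348% of all genes). Of the members 16 were higher and 0 lower at an unadjusted p under 0.05, where 4.92% of all genes were higher. In 18 the groups did not overlap with ML351 higher, against 8.57% of all genes. The median log2 fold change was 0.14, and 0.11 without ML351 replicate 1. In that omission 13 were higher at an unadjusted p under 0.05, beside 2.85% of all genes. Summed over the list, the level was 16601, 16453 and 15605 CPM with ML351, against 15110, 14306 and 14601 CPM with vehicle.

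Hspa5, the chaperone BiP, was at 2268, 2153 and 2152 CPM with ML351, against 1893, 1777 and 1900 CPM with vehicle (0.24, SE 0.061, edgeR adjusted p = 0.18). Pdia6, a disulfide isomerase, was at 832, 803 and 727 CPM with ML351, against 696, 651 and 636 CPM with vehicle (0.25). The lectin chaperone calreticulin (Calr) was at 917, 860 and 818 CPM with ML351, against 782, 731 and 711 CPM with vehicle (0.22). In these 3 genes each ML351 library lay above each vehicle library. Dnajb11, a co-chaperone of BiP, was at 120, 111 and 110 CPM with ML351, against 99.5, 90.3 and 85.7 CPM with vehicle (0.31, adjusted p = 0.12). Dnajc3, another BiP co-chaperone, stood at 0.26, Creld2 at 0.27, the degradation factor Edem1 at 0.26, Sdf2l1 at 0.35 and the secreted factor Manf at 0.22. The transcription factor Xbp1 (-0.10), Herpud1 (-0.03) and Derl2 (-0.01) were the 3 members below zero.

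Promoters of this list were searched for the ER stress response element, a known binding element of the unfolded protein response factors. The letters searched were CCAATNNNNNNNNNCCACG on both strands, in RefSeq windows of 250 bases before to 50 after the start (build GRCm38.p6). Of 33 members 25 had a window in the table, and 9 of these (36%) held a match, against 37 of 27025 genes with a window (0.137%) and 17 of 10692 tested genes (0.159%). The list holds classic targets of the unfolded protein response, so this contrast follows from its make-up and says nothing about ML351. Among members at an unadjusted p under 0.05 the share was 35.7%, and among the others 36.4%. The 250 bases before the start are shown for the 4 members of smallest p that hold a match, with its fixed letters in capitals and in the sense of the gene. They are Pdia6 (chr12:17266339-17266588, plus strand), Hspa5 (chr2:34771840-34772089, plus strand), Calr (chr8:84846932-84847181, minus strand) and Dnajc3 (chr14:118937682-118937931, plus strand).
Pdia6: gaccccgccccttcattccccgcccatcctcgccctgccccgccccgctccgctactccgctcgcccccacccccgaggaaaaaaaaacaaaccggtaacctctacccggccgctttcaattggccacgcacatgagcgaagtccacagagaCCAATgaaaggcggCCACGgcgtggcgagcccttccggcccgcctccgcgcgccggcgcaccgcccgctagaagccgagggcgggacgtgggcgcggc
Hspa5: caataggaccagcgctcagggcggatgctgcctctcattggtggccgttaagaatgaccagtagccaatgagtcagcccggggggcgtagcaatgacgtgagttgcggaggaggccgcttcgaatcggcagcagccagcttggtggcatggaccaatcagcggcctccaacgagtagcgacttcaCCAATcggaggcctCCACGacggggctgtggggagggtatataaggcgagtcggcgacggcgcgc
Calr: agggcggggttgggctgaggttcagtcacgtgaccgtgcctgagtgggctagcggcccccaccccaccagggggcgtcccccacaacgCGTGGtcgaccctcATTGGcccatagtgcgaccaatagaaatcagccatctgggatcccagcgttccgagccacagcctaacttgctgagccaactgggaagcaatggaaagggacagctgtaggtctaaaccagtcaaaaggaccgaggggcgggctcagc
Dnajc3: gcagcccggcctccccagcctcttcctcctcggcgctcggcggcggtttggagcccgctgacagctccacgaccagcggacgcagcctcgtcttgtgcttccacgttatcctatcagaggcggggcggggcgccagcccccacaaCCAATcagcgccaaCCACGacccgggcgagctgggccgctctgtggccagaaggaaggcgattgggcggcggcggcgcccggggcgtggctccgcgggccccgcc
The match began 98 bases before the start in Pdia6, 65 in Hspa5 and 105 in Dnajc3. In Calr the element lay in the opposite orientation, 162 bases before the start. A match describes the sequence and does not show that the site is used. Dnajb11, the member of smallest p, held no match in its window.

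The integrated stress response, which acts through Atf4 when protein synthesis is slowed, had 7 of 24 members higher and 0 lower at an unadjusted p under 0.05 (4.92% and 4.06% of all genes), with a median of 0.11. Atf4 itself was at 164, 149 and 160 CPM with ML351, against 146, 141 and 140 CPM with vehicle (0.15, edgeR adjusted p = 0.48). Its targets Trib3 (0.25), Ddit3, also called Chop (0.24), and the serine synthesis enzyme Psat1 (0.26) had separate groups. Without ML351 replicate 1 the count was 4 higher (2.85% of all genes) and the median 0.06. Without vehicle replicate 2 the count was also 4 (3.85% of all genes). Aminoacyl-tRNA synthetases, which load amino acids onto transfer RNA, had 3 of 20 higher and 0 lower, among them Hars (0.24) and Eprs (0.19). Without ML351 replicate 3, 6 were higher, beside 5.98% of all genes. Neither edgeR nor DESeq2 called a member of either list. DESeq2 gave the integrated stress response gene Stc2 no adjusted p and so could not call it.

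The aryl hydrocarbon receptor (AHR) senses small aromatic compounds and switches on enzymes that metabolise them. Of 16 tested genes of this receptor and of xenobiotic metabolism edgeR called 0 and DESeq2 called 0. To some, among them Ahrr and Lpcat2, DESeq2 gave no adjusted p, so it could not call those. By edgeR 7 were lower and 2 higher at an unadjusted p under 0.05 (4.06% and 4.92% of all genes). In 6 the groups were separate, all lower with ML351 (7.32% of all genes). The median of the 16 was -0.11, and -0.41 without ML351 replicate 1, where 5 were lower and 0 higher. The higher count was also 0 without vehicle replicate 4, and 1 without vehicle replicates 1 or 2. Cyp1a1, the classic AHR-induced enzyme, was at 6.97, 11.8 and 7.87 CPM with ML351, against 21.1, 22.0 and 28.6 CPM with vehicle (-1.43, SE 0.37, edgeR adjusted p = 0.27). Each ML351 library lay well below each vehicle library. Ahrr, the repressor that AHR itself induces, had 0, 2 and 5 counts with ML351, against 18, 14 and 11 counts with vehicle (-2.74, SE 0.75, adjusted p = 0.22). Its counts are few, so counting error is large.

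Cyp1b1, a related enzyme gene, was at 0.552, 0.692 and 1.73 CPM with ML351, against 3.23, 4.20 and 1.70 CPM with vehicle (-1.61, edgeR adjusted p = 0.49), and its groups overlapped. Nqo1, a quinone reductase, was at 20.4, 18.4 and 18.2 CPM with ML351, against 26.6, 26.1 and 27.4 CPM with vehicle (-0.50, adjusted p = 0.38). From the 6 libraries without cytokines alone edgeR called Nqo1 (adjusted p = 0.034). The glucuronosyltransferase gene Ugt1a6a stood at -0.28 and Lpcat2 at -0.80. Tiparp, another AHR target, was at 14.9, 16.2 and 16.2 CPM with ML351, against 16.5, 18.3 and 15.9 CPM with vehicle (-0.10, adjusted p = 0.82). The core of the AHR binding element, GCGTG on either strand, was in 9 of 14 promoter windows of the list (64.3%), against 55.1% of tested genes.

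Redox genes lay on both sides of zero. NRF2 switches on genes of glutathione and quinone detoxification, and of 30 tested targets 1 was higher and 4 lower at an unadjusted p under 0.05 (4.92% and 4.06% of all genes), with a median of 0.01. Without ML351 replicate 1 that median was -0.03, and the higher count ran from 0 without vehicle replicate 1 to 4 without ML351 replicate 3. The lower ones were Gstp1, Gstm1, Nqo1 and Nfe2l2, which encodes NRF2 itself. DESeq2 called 3 of the 30, Gstp1, Gstm1 and Nfe2l2, all lower (0.433% of all genes). Nfe2l2 was at 30.8, 28.7 and 29.9 CPM with ML351, against 37.2, 34.1 and 37.9 CPM with vehicle (-0.29, edgeR adjusted p = 0.17). Of 29 antioxidant genes 3 were higher, the metallothioneins Mt1 (0.42) and Mt2 (0.43) and the mitochondrial thioredoxin Txn2 (0.13). In the same list 2 were lower, Sod1 (-0.21) and the thioredoxin inhibitor Txnip (-0.37). DESeq2 called 1 of the 29, Mt2, higher (0.348% of all genes). Of 10 NADPH oxidase genes 0 were higher and 2 lower at that level, the phagocyte oxidase Cybb and its GTPase Rac2 (-1.26).

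Lipoxygenase and eicosanoid enzymes had 1 of 25 tested members higher, Hpgds, and 2 lower at an unadjusted p under 0.05 (4.92% and 4.06% of all genes). Leaving out single libraries gave 1 to 2 higher and 1 to 3 lower. DESeq2 called Hpgds higher (0.348% of all genes) and no other member, but gave Alox5ap no adjusted p. In 6 of the 25 the groups did not overlap with ML351 lower (7.32% of all genes), and in 2 with ML351 higher (8.57%). The 2 lower by unadjusted p are given next. They were Pla2g15, a lysosomal phospholipase (-0.20), and Alox5ap, which presents arachidonic acid to its lipoxygenase. Alox5ap was at 4.93, 5.32 and 6.34 CPM with ML351, against 7.89, 6.49 and 8.15 CPM with vehicle (-0.44, edgeR adjusted p = 0.42). Of the lipoxygenase genes themselves, Alox12 had 9, 9 and 8 counts with ML351, against 14, 6 and 5 counts with vehicle, too few for a difference to be detectable. Alox8 was at 4.55, 4.92 and 4.45 CPM with ML351, against 4.63, 4.48 and 4.93 CPM with vehicle (-0.01, SE 0.15). Alox12b had 1, 8 and 6 counts with ML351, against 13, 9 and 9 counts with vehicle (-1.23, adjusted p = 0.62).

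The pathways of the called genes were examined in the same way. Each of these lists holds the called gene that led to it, so that call is no result about the list. Of 43 nuclear transport genes 1, Xpo1, was called, where 0.0142% of all genes were called higher. At an unadjusted p under 0.05, 7 were higher and 0 lower (4.92% and 4.06% of all genes), with a median of 0.05. The higher count was 3 without ML351 replicate 1 (median 0.03) or replicate 2, and 4 without vehicle replicate 4. The 7 included the importin Ipo7 (0.23), the pore subunit Nup160 (0.29) and the import receptor Tnpo3 (0.16). Of 25 genes of copper, zinc and iron handling 6 were higher and 2 lower at that level. The 2 were Atp7a and the iron exporter Slc40a1 (-0.21), while the copper importer Slc31a1 (0.21), the zinc transporter Slc30a7 (0.30) and 3 metallothioneins were higher. Slc30a7 was at 69.1, 59.0 and 61.9 CPM with ML351, against 52.2, 50.8 and 51.0 CPM with vehicle (edgeR adjusted p = 0.17). DESeq2 called Slc30a7 and Mt2 higher and Atp7a and Slc40a1 lower (0.348% and 0.433% of all genes).

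Of 42 lysosome and autophagy genes 4 were higher and 5 lower (4.92% and 4.06% of all genes), with a median of 0.01. The lower count was 2 without ML351 replicate 1 (median -0.02) or vehicle replicate 1 and 3 without ML351 replicate 3 or vehicle replicate 2. The higher count was 2 without vehicle replicate 1, vehicle replicate 2 or ML351 replicate 2. Without ML351 replicate 3 it was 7, beside 5.98% of all genes. Mcoln1 and its relative Mcoln3 (0.35) were among the higher, and Gpnmb, the protease Ctsf (-0.31) and the lysosomal regulator Tfeb (-0.41) among the lower. DESeq2 called Mcoln1 higher and Gpnmb and Ctsf lower (0.348% and 0.433% of all genes). Of 11 tested genes of lysophosphatidic acid signalling, a list that Enpp2 led to, Enpp2 was the 1 at an unadjusted p under 0.05. No receptor or lipid phosphatase of the list reached that level in the fit of all 12 libraries. The lower count was 2 without ML351 replicate 1 and 3 without ML351 replicate 3.

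**Figure D4:**
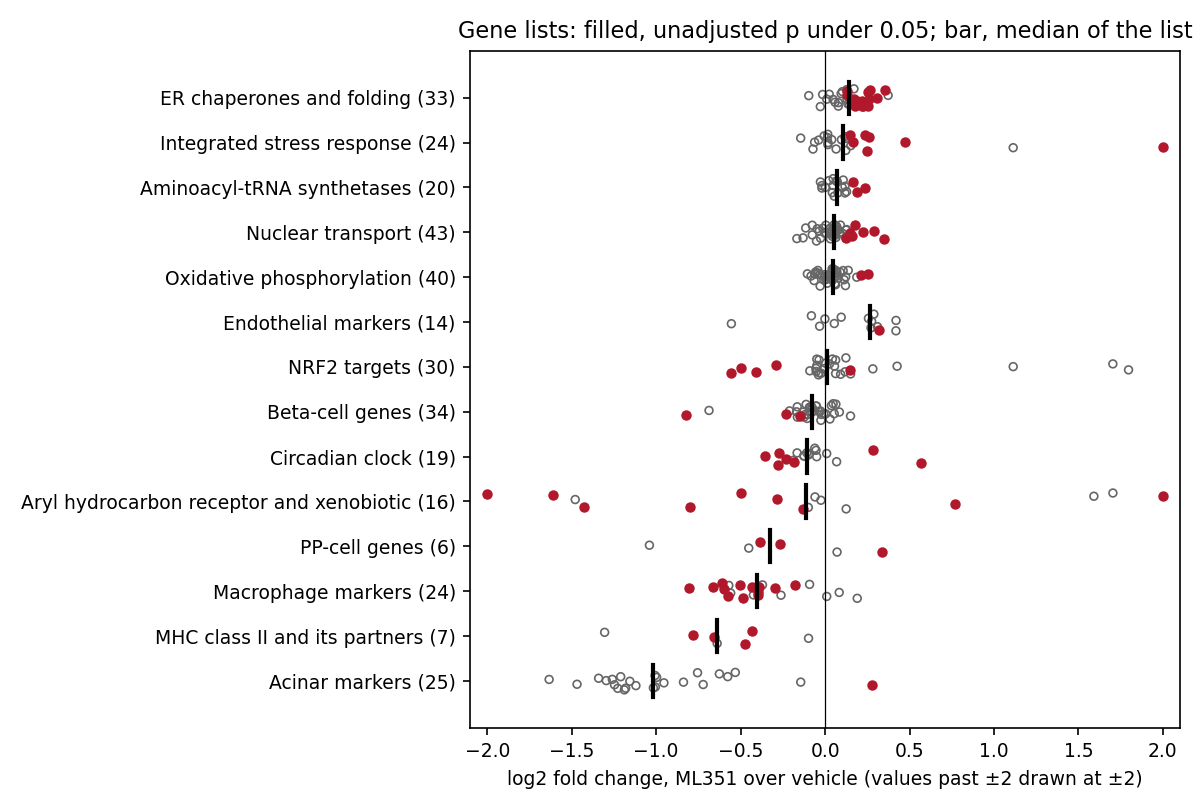
Log2 fold change of ML351 over vehicle (horizontal axis) for the members of 14 gene lists (rows, tested members in brackets). Each point is a gene, filled where its unadjusted p was under 0.05, and black bars are list medians. The macrophage bar lies at -0.40 and the MHC class II bar at -0.64, the ER chaperone bar at 0.14, and the acinar bar at -1.02 with 1 filled point.

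Genes of endocrine cells gave no call by edgeR in the fit of all 12 libraries. From the 6 libraries without cytokines alone edgeR called Nnat (adjusted p = 0.034). DESeq2 called 1 β-cell gene, Nnat, and 1 PP-cell gene, Fxyd6, both lower (0.433% of all genes). Of 34 β-cell genes 0 were higher and 3 lower at an unadjusted p under 0.05 (Nnat, Chga and Nkx2-2), 26 lay below zero, and the median was -0.08. All-gene shares were 4.92% and 4.06%. With ML351 replicate 1 or vehicle replicate 4 left out 1 member was lower. With ML351 replicate 2 left out 10 were, beside 4.44% of all genes. With ML351 replicate 3 left out 2 were higher and 2 lower. Ins1 was at 62061, 71832 and 71996 CPM with ML351, against 75223, 73418 and 82058 CPM with vehicle (-0.16, SE 0.1, edgeR adjusted p = 0.7). Ins2 was at 192436, 233249 and 222177 CPM with ML351, against 239876, 226250 and 262043 CPM with vehicle (-0.17), and its groups overlapped. The β-cell factor genes Pdx1 (-0.13) and Mafa (-0.03) overlapped too, as did the glucagon gene Gcg (-0.08). Sst, the somatostatin gene, was at 1335, 1362 and 1362 CPM with ML351, against 1255, 1239 and 1288 CPM with vehicle (0.10, SE 0.16).

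Some PP-cell genes varied between ML351 libraries. Of 6 tested 1 was higher and 2 lower at an unadjusted p under 0.05 (4.92% and 4.06% of all genes). Those counts were 0 and 1 without ML351 replicate 1, and 1 and 4 without ML351 replicate 3. In 4 the groups did not overlap with ML351 lower (7.32% of all genes), and in 1 with ML351 higher (8.57%). Fxyd6 was at 214, 249 and 229 CPM with ML351, against 268, 269 and 296 CPM with vehicle (-0.27, edgeR adjusted p = 0.18). Ppy, the pancreatic polypeptide gene, was at 2323, 2421 and 7114 CPM with ML351, against 7551, 8001 and 8833 CPM with vehicle (-1.04, SE 0.61, edgeR adjusted p = 0.7). ML351 replicate 3 lay near the vehicle libraries and the other 2 far below them. Pyy, which neighbours Ppy on chromosome 11 and encodes peptide YY, was at 1829, 1995 and 2565 CPM with ML351, against 2851, 2936 and 2952 CPM with vehicle (-0.45, adjusted p = 0.6). Of 28 exocytosis genes 4 were lower and 0 higher at an unadjusted p under 0.05 (2 higher without vehicle replicate 2 and 3 without ML351 replicate 3). Among the lower were the vesicle GTPase gene Rab3b (-0.30) and the complexin gene Cplx2 (-0.24). DESeq2 called Rab3b and Rph3al lower (0.433% of all genes).

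Markers of non-endocrine cells also differed between libraries. The summed level of 25 acinar markers, which are digestive enzymes and their regulators, was 362, 414 and 215 CPM with ML351, against 810, 557 and 266 CPM with vehicle, and 24 lay below zero with a median of -1.02, which was -0.39 without vehicle replicate 1. The groups overlapped, since vehicle replicate 4 lay below ML351 replicates 1 and 2. The exception was Bhlha15, a transcription factor of secretory cells, at 113, 110 and 105 CPM with ML351, against 92.2, 89.6 and 87.9 CPM with vehicle (0.28). Its CPM are part of the sums above and a large share of them, so the sums do not measure digestive enzymes alone. Stellate and fibroblast markers summed to 229, 260 and 510 CPM with ML351, against 385, 596 and 257 CPM with vehicle, with 0 of 20 at an unadjusted p under 0.05. Endothelial markers summed to 143, 143 and 150 CPM with ML351, against 131, 127 and 137 CPM with vehicle, with a median of 0.26 over 14 tested. That median was 0.08 without ML351 replicate 1 and 0.15 without vehicle replicate 2. The part of these cells in the differences of other genes was not tested.

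Inflammatory genes were at low levels without cytokines. Of 35 tested NF-κB targets and chemokines 2 were higher and 6 lower at an unadjusted p under 0.05 (4.92% and 4.06% of all genes). The higher count was 1 without ML351 replicate 1 or vehicle replicate 2, and 5 without ML351 replicate 2. Nfkb1, a subunit of the factor, was at 21.4, 20.6 and 19.1 CPM with ML351, against 25.1, 24.4 and 32.1 CPM with vehicle (-0.42, edgeR adjusted p = 0.17), and Relb, another subunit, stood at 0.47. DESeq2 called Nfkb1 and Icam1 lower (0.433% of all genes) and 0 of this list higher. Nos2, the inducible nitric oxide synthase, had 57, 75 and 78 counts with ML351, against 117, 75 and 69 counts with vehicle (-0.51, adjusted p = 0.29). Of 38 interferon response genes 6 were higher and 2 lower at that level. The higher count was 3 without vehicle replicate 2, 10 without vehicle replicate 1 and 12 without ML351 replicate 2. Of all genes 3.85%, 4.17% and 4.54% were higher in these omissions. In this list 30 members lay above zero and 8 below, with a median of 0.14. EdgeR called 0 of the 38. DESeq2 called Irf7 (0.42) and Oas3 higher and Gbp2 (-0.41) lower (0.348% and 0.433% of all genes were called higher and lower). Of 19 circadian clock genes 2 were higher, Clock (0.28) and Npas2 (0.57), and 5 lower, among them Tef (-0.23) and Nr1d1 (-0.18). The lower count was 3 without ML351 replicate 1, ML351 replicate 3 or vehicle replicate 1. Of 30 glycolysis and hypoxia genes 3 were lower, and 11 without ML351 replicate 1 or vehicle replicate 4, with 0 higher in each case. In these omissions 3.26% and 3.18% of all genes were lower. DESeq2 called 1 of the 30, Ankrd37, lower (0.433% of all genes).

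The 2 settings of the inhibitor share no library, so cytokines plus ML351 against cytokines gives a second measurement of the same genes. There edgeR called 202 genes (1.43%), 91 higher (0.646%) and 111 lower (0.788%). Of the 24 genes named above by rank, 12 higher and 12 lower, 21 had the same sign with cytokines and 5 were called there, each in the same direction. They were Clec7a, Xpo1, Enpp2, C1qc and Gpnmb. Clec7a averaged 16.1 ± 1.14 CPM with cytokines plus ML351 and 24.9 ± 0.686 CPM with cytokines (SD, n = 3 each), and fell by 0.63 on the log2 scale (edgeR adjusted p = 0.0087). Xpo1 averaged 58.5 ± 1.84 CPM with cytokines plus ML351 and 45.6 ± 1.86 CPM with cytokines (SD, n = 3 each), and rose by 0.36 (edgeR adjusted p = 0.0088). Enpp2 averaged 199 ± 19.1 CPM with cytokines plus ML351 and 248 ± 5.26 CPM with cytokines (SD, n = 3 each), and fell by 0.32 (edgeR adjusted p = 0.031).

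Mcoln1 averaged 108 ± 2.53 CPM with cytokines plus ML351 and 109 ± 1.98 CPM with cytokines (log2 fold change -0.01, SE 0.055, edgeR adjusted p = 0.95, SD with n = 3 each). Atp7a stood at -0.13 there (adjusted p = 0.39). The difference between both settings was past the threshold for 1 gene of all tested (0.0071%) and for 0 of the 24, whose lowest interaction adjusted p was 0.239 by edgeR. Over all 14089 genes the 2 sets of log2 fold changes had a Pearson r of 0.276 and a Spearman rho of 0.241 across genes, which are not independent replicates, and 58.7% had the same sign. Among the 1265 genes at an unadjusted p under 0.05 without cytokines, r was 0.430, rho 0.449 and 71.9% had the same sign.

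**Figure D5:**
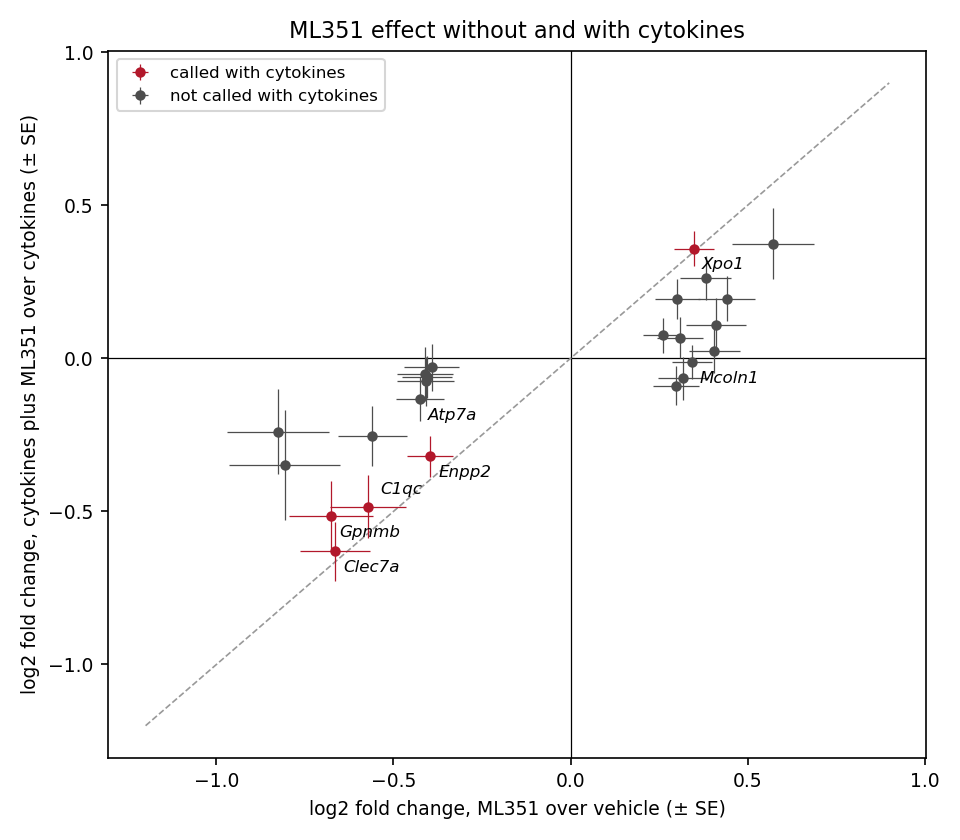
Log2 fold change of ML351 over vehicle (horizontal axis) and of cytokines plus ML351 over cytokines (vertical axis) for the 24 genes named by rank, with SE bars. Red points were called with cytokines, and the dashed line marks equal values. Clec7a, C1qc, Gpnmb, Enpp2 and Xpo1 are the red points, while Mcoln1 and Atp7a lie nearer to the horizontal axis.

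List medians were also taken with cytokines. The macrophage median was -0.29 there, with 3 of 24 called, all lower (0.788% of all genes were called lower). The MHC class II median was -0.11 with 0 of 7 called, and the ER chaperone median 0.03 with 1 of 33 called, Hspa5 (0.29, edgeR adjusted p = 0.031). In the AHR list Cyp1a1 averaged 0.749 ± 0.729 CPM with cytokines plus ML351 and 13.9 ± 4.37 CPM with cytokines (SD, n = 3 each), and fell by 4.15 on the log2 scale (edgeR adjusted p = 0.012). Ahrr stood at -2.72 (adjusted p = 0.082) and Cyp1b1 at -2.29 (0.072), on the same side as without cytokines, and Lpcat2 was called (-1.25, 0.031). The acinar and endothelial lists took the opposite sign, with medians of 1.09 and -0.67 with cytokines.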

How the data were processed

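RNA was measured in 12 libraries of mouse islets, and the comparison uses the 6 without cytokines. The authors deposited whole-number counts of reads per gene symbol, 1 column per library, not normalized. Libraries were nonstranded (SMARTSeq v4), per the labels' protocols, so reads of overlapping or antisense genes cannot be told apart. Per the submitters' processing notes, the build was mm10 and the tools were STAR, Subread, featureCounts, FastQC and DESeq2, without roles. Annotation and low-count filter are not given in the sources. No pair of replicates matched within sampling noise.

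Counts of all 12 libraries were fitted in 1 model of 4 group means with edgeR 4.0.16 in R 4.3.3 (TMM, filterByExpr by group, robust glmQLFit, glmQLFTest), which gave 8 residual degrees of freedom. P-values were adjusted by Benjamini-Hochberg over 14089 genes, and genes were called at 0.05. SE was derived from the log2 fold change and its F statistic. The test was checked on simulated data. It called 52 of 98 genes changed 1.5-fold, 82 of 99 changed 2-fold and 8 of 13736 unchanged genes. Changes below 1.5-fold were not simulated, so a gene not called may still differ. DESeq2 1.42.0 was an alternative, beside RLE scaling, a filter of 1 CPM in 3 libraries, no filter, fewer libraries and a replicate block. The main filter removed no gene, so the setting without a filter is the same fit. Coordinates are from GENCODE M21 (GRCm38, the assembly of mm10) and promoters from RefSeq (GRCm38.p6).

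Named genes are those called, then those of smallest p with separate groups and a mean log2 CPM of 2 or more, up to 12 higher and 12 lower (passing over unnamed gene models, pseudogenes, Xist and Y-linked genes), up to 4 members of smallest p in each list, and a fixed set of lipoxygenase, hormone and stress genes. Others describe their list or were picked after their values were seen. The 36 lists held 896 entries, of which 837 matched a tested gene, 9 through a RefSeq synonym. Lists were described by counts and medians beside all genes, with no test of the list. The comparison and the lists were chosen with earlier results of these data known. Alox15 and Alox5 are not analysed here, and 1 gene that the rule names is not reported here.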

Additional observations from a re-analysis of the deposited data

Results flagged for a closer look

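Ankrd10, an ankyrin repeat protein gene, was the 1 gene of 14089 (0.0071%) whose response to ML351 differed between islets with and without cytokines at an adjusted p under 0.05 in edgeR's interaction test. It was picked after its values were seen. It was at 68.3, 68.7 and 71.4 CPM with ML351, against 84.2, 80.5 and 88.9 CPM with vehicle (log2 fold change -0.28, adjusted p = 0.122). It was at 40.2, 39.5 and 36.7 CPM with cytokines plus ML351, against 30.5, 29.6 and 31.9 CPM with cytokines (0.34, adjusted p = 0.0197). The ML351 libraries lay below vehicle in the first setting and above cytokines alone in the second. The difference of the 2 effects was 0.62 on the log2 scale (SE 0.0886, adjusted p = 0.0303).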

How the results depend on the processing

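The number of called genes depended on the setting. Against 5 genes (2 higher, 3 lower), edgeR called 0 with RLE size factors (lowest adjusted p = 0.0524, 1226 genes at an unadjusted p under 0.05). From the 6 libraries without cytokines it called 16 (3 higher, 13 lower), of which 4 were shared. With a filter of 1 CPM in 3 libraries it called the same 5. Leaving the filter out repeated the main fit, since the main filter removed no gene. That setting is no check, though its values are counted among the alternatives below. DESeq2 called 110 (49 higher, 61 lower), the 5 included. Leaving out 1 library gave 0 to 17 calls, 0 to 8 higher and 0 to 9 lower. The cause was not tested. Correlations of deviations from group means ran from -0.377 to 0.202 for same-numbered libraries and from -0.301 to 0.466 for the others. With 3 libraries per group, these values cannot settle whether replicate numbers pair the libraries. With the replicate block edgeR called 0 genes, 0 higher and 0 lower (lowest adjusted p = 0.156, 1225 genes at an unadjusted p under 0.05). Of 2016 values of named genes under the alternatives, 63 passed the threshold anew, 33 no longer passed it, and 16, of 10 genes, changed direction, with the lowest adjusted p among these 0.896. Leaving out 1 library, the log2 fold change ran from -0.50 to 2.39 for Krt19, -0.021 to 0.59 for Myc, -0.023 to 0.29 for Cat, -0.0049 to 0.13 for Slc7a2, -0.37 to 0.41 for Alox12, -0.15 to 0.058 for Mafa, -0.15 to 0.30 for Il7r, -0.18 to 0.071 for Gcg and -0.057 to 0.026 for Alox8. With the block it was 0.027 for Rbp4, 0.20 for Gcg and 0.049 for Alox8. Of 432 list medians 431 moved by no more than the median SE of the genes in the list. That limit is the error of single genes, so passing it does not show that a median held still. The AHR median, for example, went from -0.11 to -0.41 without ML351 replicate 1. Of the 432 medians 14 changed sign, and the Schwann cell median was -0.73 without ML351 replicate 3. Genes with few counts, such as Ahrr and Alox12, are limited by depth.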
